A study of Bos taurus with 20 samples.

Results

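Collagen genes were followed in the cells of the bovine antral follicle. They were the genes on a custom bovine Agilent array whose symbol, without its transcript suffix, was COL, a number, A, and a number. Of the 22550 genes or transcripts measured, 43 were collagen genes, and they were read by 124 of the 61325 non-control spots, with 99 distinct probe sequences. Of these 43 genes, 38 had 2 distinct probes, and no probe of theirs was also spotted under the name of another gene.

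The 20 arrays came from 5 groups of 4. Theca cells (TH) were scraped from the follicle wall, granulosa cells (GC) and cumulus-oocyte complexes were aspirated, and the complexes gave cumulus cells (CC) and oocytes. The fifth group was CC detached after 4 h of in vitro maturation (IVM). All came from follicles of 3 to 6 mm in ovaries collected at slaughter, with no genetic change and no agent named besides IVM, and the age of the animals, the number pooled for an array, and the makeup of the IVM medium were not given in the labels. The paper describes the 4 arrays of a cell type as biological replicates. For each array, 200 ng of total RNA was labeled with Cy3.

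Collagens are proteins of 3 chains wound into a triple helix, in which glycine recurs at a fixed spacing. Fibrillar collagens (types I, III, and V) give tensile strength to the wall of the follicle, type IV collagen forms the sheet of basement membranes, and type VI forms beaded filaments around cells. Fibril-associated collagens decorate fibrils, transmembrane collagens sit in the cell surface, and the multiplexins XV and XVIII lie close to basement membranes. In the antral follicle, the theca is a vascularized connective tissue, and a basal lamina separates it from GC, which have no vessels.

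The level of a gene is given as log2 of the processed signal after subtraction of the 75th percentile of log2 signals on its array, so that 0 is the level of a fairly bright probe and a difference of 1 is 2-fold. It was the median over the spots of a gene, and a level of one gene was not set against that of another, because probes differ in brightness. Below about the lowest signal well above background, which lay from -5.73 to -4.59 on the somatic arrays, values have no order. On the oocyte arrays this limit ran from -6.84 to -4.02, and the highest was on replicate 2. On that array only 49.3% of all probes and 21.8% of the collagen probes were well above background, against 62.6% to 68.8% and 40.3% to 44.4% on the other 3. Where no array of the dimmer group was well above background, the difference was given as a bound ("at least"). In bulk samples, fewer cells of a type and less RNA per cell cannot be told apart.

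The labels were set against marker genes. The summed level of the theca markers (CYP17A1, INSL3, and ACTA2) ran from 8.62 to 9.29 in TH, from 4.64 to 6.49 in GC, from 4.33 to 4.85 in CC, and from -0.08 to 0.60 in oocytes. That of the granulosa and cumulus markers (FSHR, CYP19A1, AMH, and INHBA) was 6.79 to 8.82 in GC, 8.57 to 8.62 in CC, and 4.18 to 5.06 in TH, and that of 6 oocyte markers was 7.95 to 8.37 in oocytes and at most 1.59 elsewhere, on CC replicate 4. The TH arrays also carried the 6 smooth muscle and pericyte markers (7.56 to 7.74 in TH, 4.49 at most elsewhere), the 6 fibroblast markers (8.34 to 8.91, 5.58 at most elsewhere), and 5 of the 6 endothelial markers on at least 3 arrays (2.22 to 3.12, against -2.27 to -0.47 in GC and CC and 1.56 to 2.16 in oocytes). ACTA2, with 7.26 to 7.50 on the TH arrays, belongs to both the theca and the smooth muscle lists. It made up most of the smooth muscle sum, so the sums of these lists are not independent. By the test, 5 of the 6 smooth muscle and pericyte markers were higher in TH than in GC and CC. The remaining marker, CSPG4, was not called in either comparison. Of the blood cell markers, 3 of 4 were well above background on at least 3 TH arrays, with a summed level from -2.21 to -1.01. The TH arrays thus measured markers of several cell types of the follicle wall, and the part of each in the collagen levels was not tested.

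Of the collagen genes, 33 passed the background call of the scanner software on 3 or 4 of the 4 TH arrays, against 24 in GC, 22 in CC, 22 in CC after IVM, and 19 in oocytes. As a share, this was 76.7% of the collagen genes in TH, where the share of all genes was 63.5%, and 44.2% in oocytes, where that of all genes was 66.8%. In every group, 8 were below this mark (COL6A6, COL9A1, COL9A2, COL10A1, COL11A2, COL19A1, COL22A1, and COL23A1), and COL6A6, COL10A1, and COL19A1 were well above background on 0 of the 20 arrays. Of the 35 that reached it in TH, GC, CC, or oocytes, the highest mean was in TH for 26, in CC for 5 (COL4A3, COL4A4, COL6A2, COL21A1, and COL25A1), in oocytes for 3 (COL2A1, COL6A5, and COL17A1), and in GC for COL26A1 alone, which did not differ among the cell types by the F-test.

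**Figure D1:**
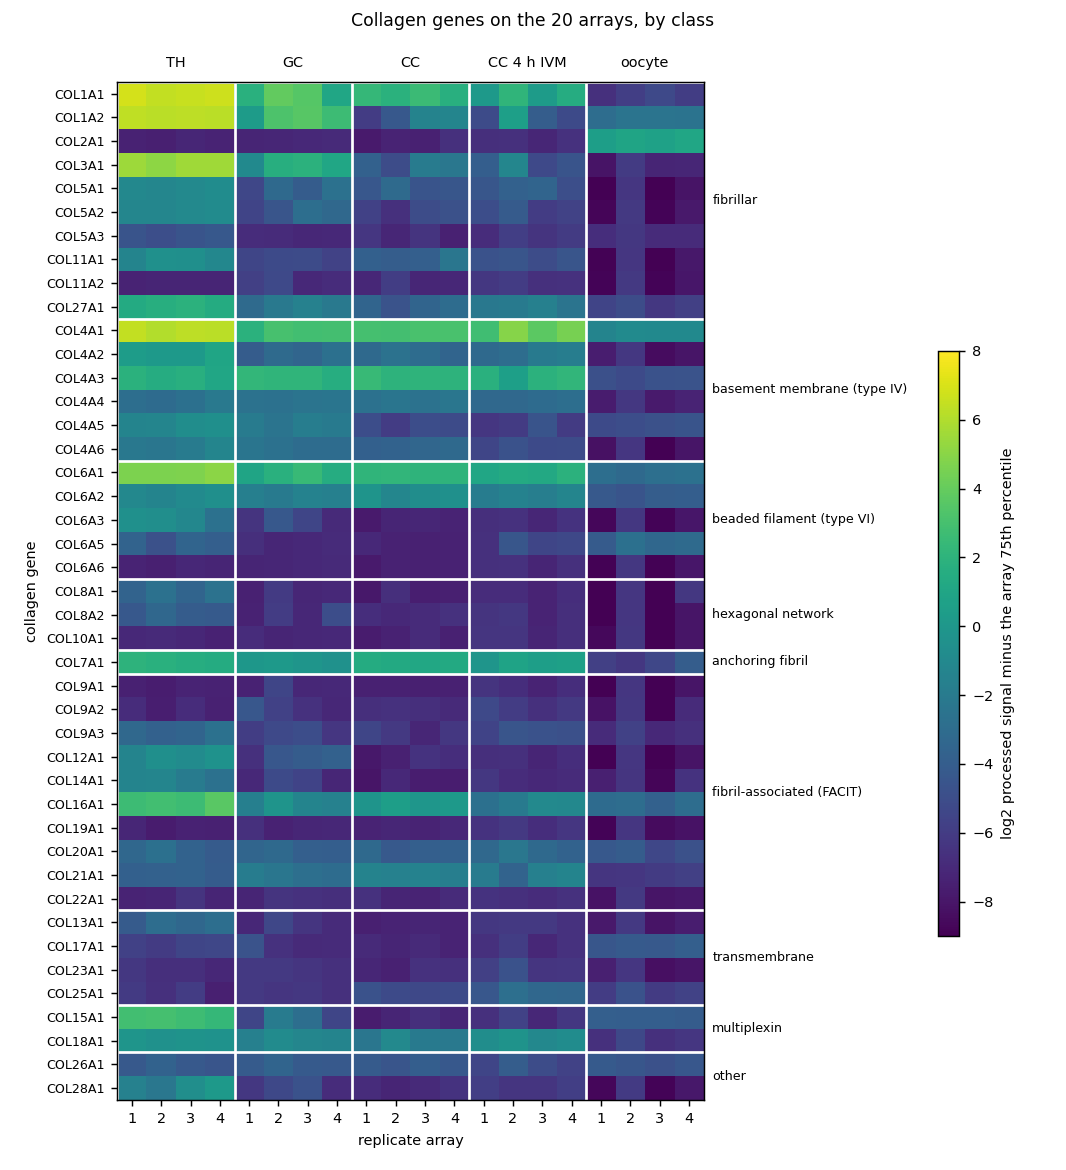
Level of the 43 collagen genes (rows, by class) on the 20 arrays (columns, 4 replicates in each group), as log2 processed signal minus the array 75th percentile. TH is the brightest block for most rows, COL2A1 is bright in oocytes alone, and oocyte replicate 2 is lighter than the other oocyte arrays where genes were at background.

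The first question was whether collagen genes differed among the 4 cell types. In the limma F-test over the 4 cell types (16 arrays), 35 of 43 (81.4%) had a BH-corrected p under 0.05, beside 71.3% of all genes. Between TH and GC, 26 were higher in TH (60.5%, against 11.8% of all genes) and 1, COL21A1, was lower (14.5% of all genes). The median difference was 2.30 for the collagen genes and -0.22 for all genes. Between TH and CC, 26 were again higher in TH (14.4% of all genes) and 3 lower (COL4A3, COL21A1, and COL25A1, against 17.4% of all genes), with a median of 2.61 beside 0.00. On the arrays of slide 1 alone, 18 were higher in TH than in GC and 20 higher than in CC, and on those of slide 2 alone 25 and 26.

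**Figure D2:**
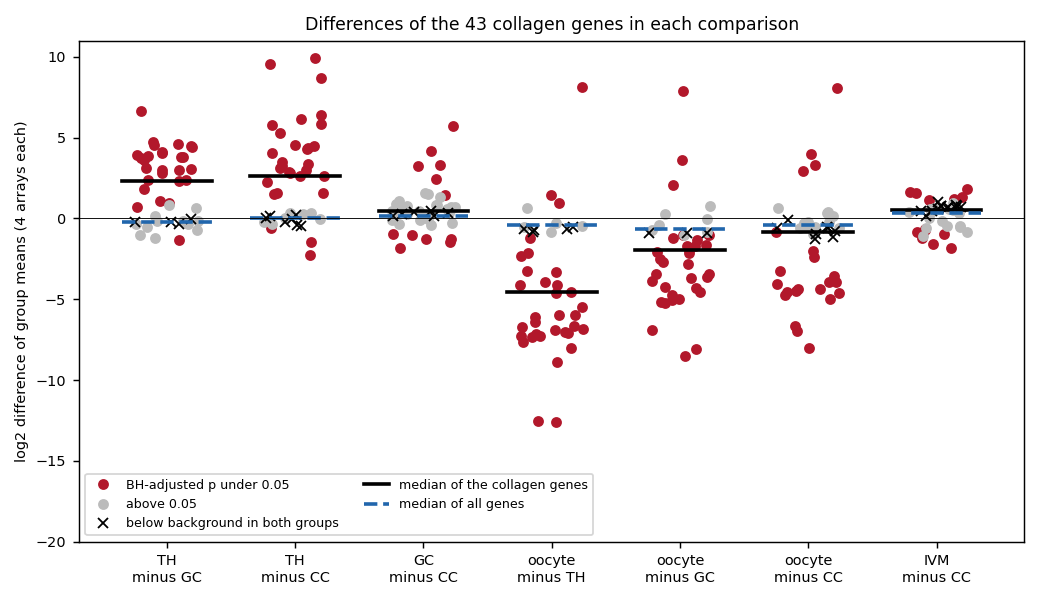
Difference in log2 level between the group means (4 arrays each) of each collagen gene, 1 point per gene, in the 7 comparisons. Crosses are genes that stayed below background on every array of both groups. The medians of the collagen genes (solid lines) were 2.30 and 2.61 for TH minus GC and TH minus CC, where those of all genes (dashed lines) were -0.22 and 0.00.

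Of the 10 fibrillar chains on the array, 8 were higher in TH than in GC and the same number than in CC (11.8% and 14.4% of all genes). The medians of these chains were 3.40 and 3.83. COL1A1 encodes the alpha 1 chain of type I collagen, the main fibril of connective tissue. Its level was 6.88, 6.44, 6.54, and 6.71 in TH, 1.80, 3.89, 3.54, and 1.07 in GC, and 2.33, 1.86, 2.60, and 1.73 in CC. In oocytes it was -6.63, -5.84, -5.27, and -5.89, and only 2 of these arrays were well above background. TH lay above every other array without overlap, and the difference was 4.07 ± 0.50 (SE) from GC (16.8-fold, adjusted p = 1.9e-05, limma) and 4.51 ± 0.50 from CC (22.8-fold, adjusted p = 4.0e-06), while GC and CC overlapped (0.45 ± 0.50, adjusted p = 0.66).

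COL1A2, the alpha 2 chain of the same protein, stood apart from COL1A1 in CC and in oocytes. Its level was 6.40, 6.22, 6.28, and 6.25 in TH, and 0.36, 3.27, 3.59, and 2.64 in GC. The 4 CC arrays spread from -6.00 and -4.29 to -1.42 and -1.29, and the 4 oocyte arrays were at -2.90, -2.43, -2.43, and -2.54, all well above background. The CC values thus fell on both sides of the oocyte values, and the difference of oocytes from CC was 0.67 ± 0.88 (adjusted p = 0.50), where COL1A1 was lower in oocytes by 8.04 ± 0.50 (adjusted p = 9.0e-10). Against GC, CC was lower in COL1A2 by 5.72 ± 0.88 (52.6-fold, adjusted p = 0.00067).

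COL3A1 encodes type III collagen, which forms mixed fibrils with type I. Its level was 5.50, 5.14, 5.59, and 5.58 in TH, -0.95, 1.69, 1.93, and 1.05 in GC, and -3.75, -5.05, -1.95, and -2.23 in CC. On the 4 oocyte arrays, it was not well above background. The 3 somatic cell types did not overlap. TH was higher than GC by 4.52 ± 0.69 (23.0-fold, adjusted p = 0.00014), GC than CC by 4.18 ± 0.69 (18.1-fold, adjusted p = 0.0011), and TH at least 2620-fold higher than oocytes (adjusted p = 1.8e-10). The GC to CC difference was in the same direction but not past the threshold on the arrays of slide 1 alone.

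Probes that end 2 fibrillar chains are shown because these chains finish with much the same codons. They are given 5′ to 3′ up to the stop codon, with the last codons and the stop codon in capitals.
COL1A2 probe: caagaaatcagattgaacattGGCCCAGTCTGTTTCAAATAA
COL3A1 probe: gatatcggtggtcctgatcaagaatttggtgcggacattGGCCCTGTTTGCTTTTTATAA
The annotated transcripts lay at chr4:11624470-11661163 and chr2:7318227-7356937 on UMD 3.1 (bosTau6). Despite the shared letters, the probes differed in oocytes. The COL1A2 probe was at -1.19, -0.65, -0.71, and -0.71 there, well above background on the 4 arrays, and its other probe, of different sequence, on 3. The COL3A1 probe was well above background on no oocyte array. In TH against CC, the same probes differed by 8.84 ± 0.85 and 8.78 ± 0.66 (adjusted p = 1.3e-06 and 1.0e-07, limma over all probes).

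COL5A1 encodes a type V chain that sets fibril width. Its level was -1.08, -1.19, -1.0, and -0.71 in TH, -5.35, -3.20, -4.07, and -2.64 in GC, and -4.39, -3.14, -4.57, and -4.48 in CC. TH did not overlap with either, and the difference was 2.82 ± 0.61 from GC (adjusted p = 0.0026) and 3.15 ± 0.61 from CC (adjusted p = 0.00080). COL5A2 (2.99 ± 0.62 above GC) and COL5A3 (at least 1.35-fold above GC) were called in the same direction.

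COL11A1, a type XI chain best known from cartilage, had a different order. Its level was -1.35, -0.48, -0.55, and -1.15 in TH, -5.42, -5.17, -5.13, and -5.64 in GC, and -3.81, -3.96, -3.87, and -2.33 in CC. The 3 groups were apart, with GC the lowest of them. The difference of GC from CC was -1.85 ± 0.51 (adjusted p = 0.031), and without CC replicate 4, the highest, it was -1.46 (adjusted p = 0.10). The call was also lost without CC replicate 1 (-1.95) and without any 1 of the GC arrays (-1.92 to -1.75). COL11A1 was above background on no oocyte array. CC replicate 4 had the highest summed oocyte markers of the CC arrays (1.59), and the part of oocytes in its COL11A1 level was not tested. COL11A2 was not well above background on any TH or CC array.

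COL27A1, a fibrillar chain of another branch of the family, was at 1.38, 1.63, 1.95, and 1.45 in TH, -3.09, -2.12, -1.52, and -2.12 in GC, -3.50, -4.63, -3.54, and -2.97 in CC, and -5.53, -5.06, -6.25, and -5.80 in oocytes. The means fell in that order, and TH was higher than GC by 3.81 ± 0.37 (14.1-fold, adjusted p = 1.6e-06). GC and CC overlapped, with a difference of 1.45 ± 0.37 (adjusted p = 0.020) that was no longer past the threshold without GC replicate 2 (1.41), GC replicate 3 (1.21), or CC replicate 2 (1.12).

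COL2A1 was the exception among fibrillar chains. It encodes type II collagen, the fibril of cartilage and of the vitreous body. Its level was 0.56, 0.95, 0.71, and 1.09 in oocytes, and no TH, GC, or CC array was well above background (from -7.77 to -6.61). The oocyte arrays were all far above these 12. The level in oocytes was at least 58.2-fold that in GC, 69.4-fold that in TH, and 75.6-fold that in CC (adjusted p = 1.0e-13, 6.9e-14, and 7.5e-14). Its 2 probes, each spotted 3 times, both showed this, with oocyte means of 1.97 and -0.30 and no TH, GC, or CC array above -6.32. The call held on each slide alone and under every setting tried. The annotated gene begins at chr5, position 32450298.

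**Figure D3:**
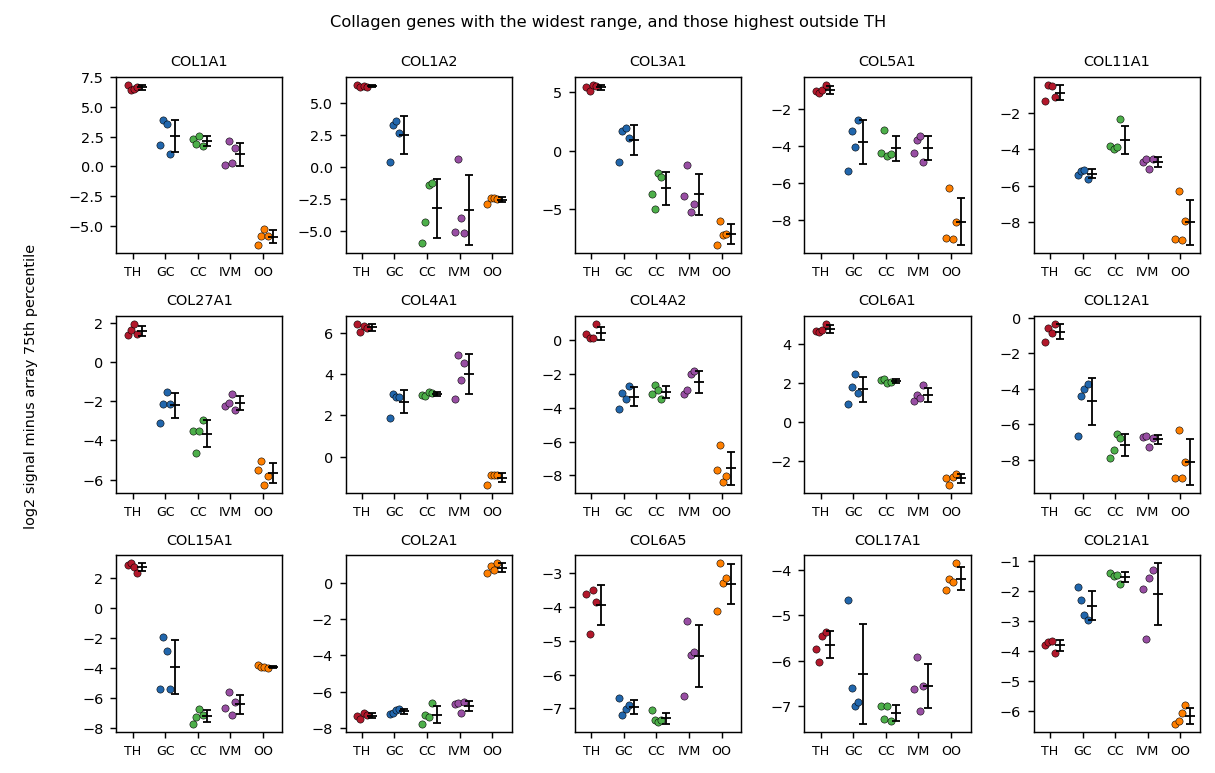
Levels of 15 collagen genes on each array (points) in TH, GC, CC, CC after 4 h of IVM, and oocytes (OO), with the mean and SD of 4 arrays at the right of each group. The vertical axes differ between panels. TH was the highest group in 11 panels and oocytes in those of COL2A1, COL6A5, and COL17A1, and CC lay highest for COL21A1.

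The type IV chains, the sheet of the basal lamina, did not all keep to their gene pairs. In mammals they lie as head-to-head pairs, and here COL4A1 and COL4A2 were on chromosome 12, COL4A3 and COL4A4 on chromosome 2, and COL4A5 and COL4A6 on chromosome X. Against GC, 3 of 6 were higher in TH (COL4A1, COL4A2, and COL4A5) and none lower (11.8% and 14.5% of all genes). Against CC, 4 were higher and COL4A3 was lower (14.4% and 17.4% of all genes). All 6 were lower in oocytes than in TH and in GC (32.1% and 37.9% of all genes).

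COL4A1 was at 6.42, 6.01, 6.32, and 6.24 in TH, 1.85, 3.03, 2.87, and 2.90 in GC, 2.98, 2.92, 3.11, and 3.09 in CC, and -1.34, -0.88, -0.90, and -0.90 in oocytes. TH was above GC by 3.59 ± 0.23 (12-fold, adjusted p = 2.6e-08), and GC and CC differed by -0.36 ± 0.23 (adjusted p = 0.39). The oocyte level, well above background on the 4 arrays, was 16.3-fold below that of CC (adjusted p = 2.5e-10). Its partner COL4A2 was at 0.38, 0.16, 0.16, and 0.98 in TH, -4.05, -3.10, -3.48, and -2.72 in GC, and -3.20, -2.62, -2.96, and -3.50 in CC, and on no oocyte array above background. TH exceeded GC by 3.76 ± 0.41 (13.6-fold, adjusted p = 5.6e-06).

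COL4A3 and COL4A4 were not higher in TH by the test. COL4A3 had levels of 1.54 ± 0.36 (TH), 2.04 ± 0.30 (GC), and 2.12 ± 0.21 (CC, SD, n = 4), and was lower in TH than in CC by 0.59 ± 0.21 (adjusted p = 0.041). COL4A4 was read by 1 working probe, at 1.83, 1.91, and 2.35 in TH, GC, and CC, with no call between them, and by a probe that was never above background. COL4A5 had levels of -0.95 ± 0.42 (TH), -2.03 ± 0.28 (GC), and -5.27 ± 0.47 (CC, SD, n = 4, with 2 CC arrays above background), and TH exceeded GC by 1.08 ± 0.26 (adjusted p = 0.0051) and CC by 4.32 ± 0.26 (adjusted p = 6.6e-09). GC in turn exceeded CC by 3.24 ± 0.26 (adjusted p = 2.7e-06), and TH, GC, and CC were apart.

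COL4A6 is the neighbor of COL4A5. Its level was -2.20, -2.32, -1.96, and -1.29 in TH, -2.41, -2.63, -3.01, and -2.97 in GC, and -3.81, -3.66, -3.42, and -3.20 in CC, and TH exceeded CC by 1.58 ± 0.43 (adjusted p = 0.0097), while GC and CC differed by 0.77 ± 0.43 (adjusted p = 0.33). The 2 probes disagreed on this. One was above background on the 4 TH arrays and on no CC array. The other was at -1.92, -2.35, -1.86, and -0.46 in TH and -1.34, -1.18, -1.16, and -0.88 in CC, with a difference of TH from CC of -0.51 ± 0.50 (adjusted p = 0.56). The second probe lies in the globular end of the chain, and is shown with a COL4A2 probe of the same part to show how alike the chains are there, with the bases that are identical between them in capitals (34 of 54 overlapping bases, 63.0%).
COL4A2 probe: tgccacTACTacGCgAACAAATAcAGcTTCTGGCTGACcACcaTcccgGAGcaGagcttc
COL4A6 probe: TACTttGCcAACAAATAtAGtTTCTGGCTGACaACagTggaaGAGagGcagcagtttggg
The transcripts lay at chr12:89112423-89165255 and chrX:61054247-61125754 (UMD 3.1). The COL4A2 probe was higher in TH than in CC by 3.53 ± 0.41 (adjusted p = 8.2e-06).

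The type VI chains were 5 on the array, and 4 were higher in TH than in GC (11.8% of all genes were). COL6A1, a chain of the main type VI protein, was at 4.67, 4.62, 4.74, and 5.04 in TH, 0.92, 1.81, 2.47, and 1.52 in GC, 2.14, 2.21, 2.03, and 2.06 in CC, and -2.88, -3.19, -2.78, and -2.64 in oocytes. TH was higher than GC by 3.09 ± 0.25 (8.52-fold, adjusted p = 3.1e-07) and than CC by 2.66 ± 0.25 (6.31-fold, adjusted p = 7.6e-07), and oocytes were lower than CC by 4.98 ± 0.25 (adjusted p = 7.4e-11). Its 2 probes called each of these, but the fall from CC to oocytes was 1.30 ± 0.27 by one and 8.67 ± 0.32 by the other, so its size depends on the probe.

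The chains that join COL6A1 in the type VI protein did not follow it in the same way. COL6A2, which lies near COL6A1 on chromosome 1, had levels of -0.95 ± 0.35 (TH), -1.68 ± 0.26 (GC), and -0.63 ± 0.43 (CC, SD, n = 4). TH exceeded GC by 0.73 ± 0.24 (adjusted p = 0.035), and CC exceeded GC by 1.05 ± 0.24 (adjusted p = 0.011). Only 2 of its 6 probes passed the threshold in each of these comparisons (limma over all probes). By its brightest probe, TH differed from GC by 0.09 ± 0.29 (adjusted p = 0.86) and GC from CC by -0.84 ± 0.29 (adjusted p = 0.10). COL6A3 was at -1.21 ± 1.02 in TH and was 4.58 ± 0.64 higher than in GC (adjusted p = 6.4e-05). By its only probe above background on all GC arrays, the difference was 3.13 ± 0.31 (adjusted p = 3.1e-06, limma over all probes). In CC, 5 of its 6 probes were above background on no array, and the sixth was at 0.33 in TH and -3.23 in CC. COL6A6 was above background on no array.

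COL6A5 was the type VI chain with the least usual order. This gene encodes a chain that can take the place of alpha 3. Its level was -3.62, -4.80, -3.51, and -3.85 in TH and -4.12, -2.70, -3.30, and -3.13 in oocytes, and no GC or CC array was above background. TH and oocytes overlapped (0.63 ± 0.30, adjusted p = 0.077), and both were above the rest. The oocyte level was at least 3.30-fold that in GC and 4.29-fold that in CC (adjusted p = 2.5e-08 and 8.2e-09). With normexp background correction the difference of oocytes from GC was 0.17 (adjusted p = 0.45).

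The fibril-associated collagens were 10 genes. Of these, 4 were higher in TH than in GC (COL9A3, COL12A1, COL14A1, and COL16A1) and 1 lower (11.8% and 14.5% of all genes). COL12A1 encodes type XII collagen, which coats type I fibrils. Its level was -1.36, -0.54, -0.82, and -0.35 in TH, -6.66, -4.41, -4.03, and -3.72 in GC, and -7.90, -7.44, -6.54, and -6.76 in CC. TH was higher than GC by 3.94 ± 0.65 (15.3-fold, adjusted p = 0.00028, with 3 GC arrays above background). COL16A1 was at 2.64, 2.87, 2.64, and 3.64 in TH, -1.67, -0.23, -1.35, and -1.51 in GC, and -0.21, 0.51, -0.06, and 0.10 in CC, and TH exceeded GC by 4.14 ± 0.32 (17.6-fold, adjusted p = 1.9e-07) and CC by 2.86 ± 0.32 (7.27-fold, adjusted p = 4.2e-06). COL14A1, another fibril coat, was 4.46 ± 0.54 higher in TH than in GC (adjusted p = 1.7e-05), where 1 array was above background.

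COL9A3, a type IX chain, was at -3.23, -3.73, -3.55, and -2.63 in TH, -5.88, -5.22, -4.95, and -6.28 in GC, and -5.47, -6.17, -7.20, and -6.27 in CC. TH was higher than GC by 2.30 ± 0.40 (adjusted p = 0.00046), with 2 GC arrays and 1 CC array above background. Its 2 probes disagreed, with a difference of TH from GC of 4.54 ± 0.53 by one (adjusted p = 1.4e-05), which was above background on the 4 TH arrays, and of 0.05 ± 0.58 by the other (adjusted p = 0.96), above background on 1. COL20A1 did not pass the threshold between any pair of somatic cell types, and its working probe was at -0.84, -1.01, -0.99, and -1.70 in TH, GC, CC, and oocytes.

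COL21A1 alone was lower in TH than in both GC and CC. It encodes a small fibril-associated chain. Its level was -3.81, -3.71, -3.67, and -4.08 in TH, -1.89, -2.30, -2.82, and -2.96 in GC, -1.41, -1.51, -1.49, and -1.76 in CC, and -6.41, -6.31, -6.06, and -5.81 in oocytes. None of the 4 groups overlapped. CC exceeded TH by 2.28 ± 0.22 (4.84-fold, adjusted p = 1.0e-06), and both probes gave this order. It exceeded GC by 0.95 ± 0.22 (1.93-fold, adjusted p = 0.012), a call that was lost under quantile normalization, among other settings.

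The transmembrane chains were COL13A1, COL17A1, COL23A1, and COL25A1, which carry the triple helix outside the cell. A stretch of the helix is visible in probes of COL13A1 and COL25A1, where glycine codons recur at a fixed spacing (GGN, in capitals, 6 in each).
COL13A1 probe: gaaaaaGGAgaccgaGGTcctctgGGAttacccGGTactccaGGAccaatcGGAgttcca
COL25A1 probe: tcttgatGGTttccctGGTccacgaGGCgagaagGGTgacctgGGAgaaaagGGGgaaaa
The transcripts lay at chr28:26253844-26406118 and chr6:17542435-17669711 (UMD 3.1). The COL13A1 probe was above background on no array, although the other COL13A1 probe was at -0.97, 0.19, -0.06, and -0.68 in TH and 5.51 ± 0.59 lower in GC (adjusted p = 6.6e-06). As the median of both probes, COL13A1 was at -4.11, -2.94, -3.29, and -2.86 in TH and -7.14, -5.36, -6.39, and -6.89 in GC, with a difference of 3.14 ± 0.43 (adjusted p = 4.6e-05).

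For COL25A1, the probe shown was the one of 3 that was above background in these cell types, and it was at -3.20, -3.47, -3.21, and -3.43 in CC, -3.63, -3.23, -3.17, and -3.24 in oocytes, -4.80, -5.72, -5.32, and -5.96 in GC, and -4.35, -5.46, -4.38, and -7.51 in TH. CC and oocytes overlapped, and each was above TH and GC without overlap. By this probe CC exceeded GC by 2.12 ± 0.52 (adjusted p = 0.020) and oocytes exceeded GC by 2.13 ± 0.52 (adjusted p = 0.0024). The median of its 3 probes was at -4.70, -5.19, -5.33, and -5.16 in CC and gave a difference of TH from CC of -1.46 ± 0.33 (adjusted p = 0.0029). The difference of oocytes from TH by this median was 0.94 ± 0.33 (adjusted p = 0.021), and under normexp correction it was -0.50.

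COL17A1, the collagen of the epithelial anchoring plaque, was above background on 3 of 4 oocyte arrays, at -4.45, -4.19, -4.27, and -3.85, and on 1 TH array (-5.74, -6.02, -5.46, and -5.36) and 1 GC array (-4.67, -6.59, -6.99, and -6.90). The oocyte level exceeded that in TH by 1.45 ± 0.39 (adjusted p = 0.0038), in GC by 2.10 ± 0.39 (adjusted p = 0.00018), and in CC at least 2.33-fold (adjusted p = 5.5e-06). These calls were made near background. Under normexp correction the differences were -0.37, -0.61, and -0.17. COL23A1 was at -6.26, -6.73, -6.69, and -7.10 in TH and above background on at most 1 array of any group.

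COL15A1 and COL18A1 are the multiplexins, whose ends are released as fragments that act on blood vessels. COL15A1 was at 2.84, 2.97, 2.72, and 2.34 in TH, -5.44, -1.92, -2.87, and -5.44 in GC, and -3.84, -3.93, -3.95, and -4.04 in oocytes, and no CC array was above background. TH was above all others, and the difference from GC was 6.64 ± 0.61 (99.5-fold, adjusted p = 9.2e-07), the widest of the collagen genes between TH and GC. TH was at least 280-fold above CC (adjusted p = 8.1e-09). The oocyte values lay inside the range of GC (-0.02 ± 0.61, adjusted p = 0.98) and at least 2.78-fold above CC (adjusted p = 0.00018). With normexp correction, that last difference was -0.06.

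COL18A1 had 1 working probe and 1 that was above background on a single CC array, so its median over spots, from -0.37 to -0.14 in TH, understated the differences. The working probe was at 7.08, 6.75, 6.69, and 6.68 in TH, 4.00, 5.50, 4.64, and 4.33 in GC, 2.89, 2.11, 3.26, and 2.80 in CC, and -4.62, -4.46, -4.41, and -4.42 in oocytes. The 4 cell types did not overlap. The difference was 2.18 ± 0.29 from TH to GC (adjusted p = 5.4e-05) and 1.85 ± 0.29 from GC to CC (adjusted p = 0.0011), and as the median over spots TH exceeded GC by 0.96 ± 0.31 (adjusted p = 0.033), a call lost without any 1 of 7 of the 8 arrays of these groups (0.84 to 0.99). The remaining genes were COL7A1, the anchoring fibril, with levels of 1.70 ± 0.23 (TH), -0.12 ± 0.22 (GC), and 1.33 ± 0.11 (CC, SD, n = 4), COL8A1 and COL8A2, above background in TH on 4 arrays and at most 1 of GC or CC, and COL28A1, at least 20.4-fold higher in TH than in CC (adjusted p = 2.5e-06).

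Levels within GC were uneven, and this touched the collagen genes that were high in TH. GC replicates 2 and 3 were the 2 highest GC arrays for 10 of the 24 collagen genes above background on at least 3 GC arrays (41.7%), and for 9.82% of all genes. COL15A1 was at -1.92 and -2.87 on these and at -5.44 on both others. The same arrays were highest in ACTA2 (2.01, 3.90, 3.81, and 1.01), a marker of contractile wall cells, in MGP (2.77, 5.29, 4.47, and 0.28), a fibroblast marker, and in INSL3 (4.39, 6.23, 5.96, and 4.57), a hormone of theca. Of the other theca, fibroblast, and smooth muscle and pericyte markers, DCN and TCF21 also had replicates 2 and 3 highest. LUM, PDGFRA, DPT, MYH11, DES, CSPG4, and CNN1 did not. CYP17A1 and RGS5 were above background on only 1 and 2 GC arrays, so their order over the 4 arrays is not read. LUM (0.45, 1.24, 2.04, and 2.17), PDGFRA (-2.89, -1.66, -0.79, and -0.65), and CSPG4 were highest on replicate 4. The summed theca markers were 4.64, 6.49, 6.26, and 4.69, and the summed granulosa and cumulus markers 7.70, 6.79, 6.91, and 8.82. Between GC and CC, 6 collagen genes were higher in GC (COL1A2, COL3A1, COL4A5, COL12A1, COL15A1, and COL27A1, against 4.61% of all genes) and 6 lower (COL6A2, COL7A1, COL11A1, COL16A1, COL21A1, and COL25A1, against 5.27%). The part of wall cells in these differences was not tested. Without GC replicate 2, and without GC replicate 3, 4 were higher, and on the arrays of slide 1 alone 2 were higher and 0 lower, and of slide 2 alone 4 and 0.

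**Figure D4:**
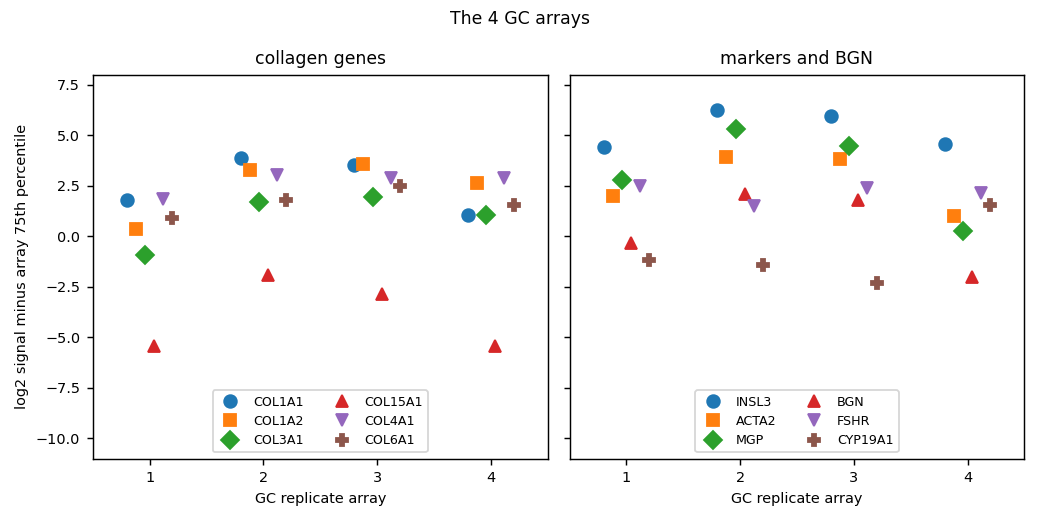
Levels of 6 collagen genes (left) and of 5 marker genes and BGN (right) on the 4 GC arrays, in log2 signal minus the array 75th percentile. Replicates 2 and 3 were above 1 and 4 for COL1A1, COL15A1, INSL3, ACTA2, MGP, and BGN, whereas CYP19A1 was highest on replicate 4 and FSHR lowest on replicate 2.

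In oocytes, 30 collagen genes were lower than in TH (32.1% of all genes were) and 3 higher (COL2A1, COL17A1, and COL25A1, against 32.5%), with a median of -4.56 beside -0.42 for all genes. Against GC, 30 were lower (37.9% of all genes) and 3 higher (COL2A1, COL6A5, and COL17A1, 30.7%), and 8 of the 30 were above background on fewer than 3 GC arrays. Against CC, 18 were lower (32.0%) and 4 higher (COL2A1, COL6A5, COL15A1, and COL17A1, 31.8%). The medians were -1.98 and -0.85, beside -0.62 and -0.40. Without oocyte replicate 2, on which background lay highest, 30 were lower than in CC. The genes still above background on the 4 oocyte arrays were 12, among them COL1A2, COL2A1, COL4A1, COL6A1, COL15A1, COL16A1, and COL27A1.

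Of 20 genes for collagen synthesis in the endoplasmic reticulum, 5 were higher in TH than in GC and 3 lower (11.8% and 14.5% of all genes). Against CC, 3 were higher and 9 lower (14.4% and 17.4% of all genes). The medians were 0.10 and -0.20, beside -0.22 and 0.00 for all genes. SERPINH1, the chaperone HSP47 that binds the folded helix, was at 4.70, 4.80, 4.54, and 4.70 in TH, 3.86, 3.92, 4.16, and 4.94 in GC, 4.88, 4.95, 4.75, and 4.77 in CC, and -4.03, -4.01, -3.42, and -3.52 in oocytes. No difference between the 3 somatic cell types passed the threshold (0.46 ± 0.22 for TH from GC, adjusted p = 0.15). P4HA3, a subunit of a prolyl hydroxylase, was higher in TH than in GC by 1.55 ± 0.38 (adjusted p = 0.0066), and FKBP10, a folding enzyme, by 1.58 ± 0.33 (adjusted p = 0.0022). P4HA3 was highest in oocytes, at 2.10, 1.92, 2.11, and 2.12, against -2.18 to -0.21 in TH. In contrast, 16 of the 20 were lower in oocytes than in TH (32.1% of all genes were).

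Of 13 genes for cleavage and cross-linking, 5 were higher in TH than in GC and 3 lower (11.8% and 14.5% of all genes). Against CC, 4 were higher and 4 lower (14.4% and 17.4% of all genes). The medians were 0.50 and 0.61, beside -0.22 and 0.00 for all genes. LOX, LOXL1, and LOXL2, oxidases that start cross-links, were higher in TH than in GC by 5.35 ± 0.68, 5.97 ± 0.53, and 4.17 ± 0.62 (adjusted p = 2.5e-05, 7.6e-07, and 0.00011), whereas LOXL3, of the same family and chosen after its values were seen, was at 0.79 to 0.95 in TH and 4.34 to 4.66 in CC (-3.56 ± 0.24, adjusted p = 2.0e-08). Of 10 proteoglycans and glycoproteins that bind fibrils, 9 were higher in TH than in GC and 9 than in CC (11.8% and 14.4% of all genes). The medians of these differences were 3.81 and 4.32. BGN was at 6.54, 6.29, 6.44, and 6.32 in TH and -0.36, 2.09, 1.81, and -2.03 in GC (6.02 ± 0.70, adjusted p = 1.0e-05), and ASPN and OMD were higher by 5.90 ± 0.79 and 4.62 ± 0.61 (adjusted p = 4.2e-05 and 3.5e-05). OMD was above background on 1 GC array. The list of fibril-binding genes shares DCN, LUM, and DPT with the fibroblast markers.

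Of 8 collagen receptors, 2 were higher in TH than in GC and 2 lower (11.8% and 14.5% of all genes), and 2 were higher and 3 lower than in CC (14.4% and 17.4% of all genes), with medians of -0.04 and 0.02. ITGA1, an integrin chain that binds type IV collagen, was at 0.97, 0.91, 1.07, and 0.45 in TH, -6.74, -3.64, -4.07, and -5.52 in GC, and -3.92, -5.31, -5.68, and -4.45 in CC (5.84 ± 0.55 from GC, adjusted p = 1.3e-06). ITGA1 was above background on 2 GC arrays. DDR2, a receptor kinase for fibrillar collagen, was 3.89 ± 0.53 higher in TH than in GC (adjusted p = 5.3e-05), where 1 array was above background. It was at least 7.50-fold higher than in CC. DDR1 and ITGA2 were lower in TH than in GC and CC by the test, and MRC2, an endocytic receptor for collagen named after its values were seen, was lower than in CC (-2.03 ± 0.51, adjusted p = 0.0058).

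The last comparison was that of CC after 4 h of IVM with CC. Here 13 of 43 collagen genes were higher after IVM (30.2%), beside 30.3% of all genes, and 7 were lower (16.3%), beside 15.5%. The median was 0.50, beside 0.37 for all genes. Under quantile normalization, with a median of all genes of 0.01, 2 were higher and 7 lower. The 4 arrays after IVM lay on a slide of their own, so slide and IVM cannot be told apart. Of the 13, 6 were above background on no array of either group (COL6A6, COL9A1, COL13A1, COL14A1, COL19A1, and COL28A1), and COL6A5 and COL23A1 on 1 array after IVM each, and no fold is given for these. The lowest signal well above background was itself higher after IVM, -5.12 to -4.59, than in CC, -5.73 to -5.26. With every array set to the same limit, 3 were higher and 6 lower.

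COL18A1 rose after IVM. Its working probe went from 2.89, 2.11, 3.26, and 2.80 in CC to 4.36, 6.09, 5.01, and 5.21 after IVM, without overlap (2.40 ± 0.39, adjusted p = 0.0021). As the median over spots, the values after IVM were -0.69, -0.28, -1.09, and -0.71, and the rise was 1.19 ± 0.31 (adjusted p = 0.015; 0.73, adjusted p = 0.095 under quantile normalization). COL27A1 went to -2.22, -2.07, -1.61, and -2.46, with no overlap with CC (1.57 ± 0.35, 2.97-fold, adjusted p = 0.0068). The COL25A1 probe shown went to -2.64, -1.73, -2.35, and -2.85 (0.93 ± 0.26, adjusted p = 0.024), and its median over 3 probes rose by 1.62 ± 0.32 (adjusted p = 0.0041). A further probe was above background on 3 arrays after IVM and on no CC array. COL9A3 went to -5.57, -4.53, -4.71, and -4.87, and overlapped with CC, where 1 array was above background (1.36 ± 0.37, adjusted p = 0.017). COL6A3 rose by 0.63 ± 0.23 as the median of 6 probes (adjusted p = 0.045), although the probe that was above background on all CC arrays differed by -0.19 ± 0.30 (adjusted p = 0.63).

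The genes that were lower after IVM were all above background on the 4 CC arrays. COL4A6 went from -3.81, -3.66, -3.42, and -3.20 to -5.42, -4.73, -5.16, and -5.11, without overlap (-1.58 ± 0.22, adjusted p = 0.00056). Its globular-end probe, printed with COL4A2, fell by 2.30 ± 0.24 (adjusted p = 0.00021). The working probe of COL4A4 fell by 1.92 ± 0.27 (adjusted p = 0.00096), from 2.28, 2.42, 2.07, and 2.63 to 0.06, 0.00, 0.88, and 0.81. These are chains of different type IV pairs, and COL4A1 did not fall, with 2.78, 4.93, 3.72, and 4.54 after IVM against 3.02 ± 0.09 (SD, n = 4) in CC (0.97 ± 0.41, adjusted p = 0.076).

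COL16A1 fell by 1.82 ± 0.38 (adjusted p = 0.0053), to -2.74, -2.07, -1.02, and -1.08, and both of its probes passed the threshold. COL11A1 fell by 1.21 ± 0.36 (adjusted p = 0.024), to -4.71, -4.50, -5.06, and -4.53, and under normexp correction the difference was 0.06. It was not past the threshold without IVM replicate 3 (-1.09, adjusted p = 0.053). Its brighter probe fell by 0.55 ± 0.22 and was not called (adjusted p = 0.065, limma over all probes). The other probe was called, but after IVM it lay below the lowest signal well above background (-6.93 to -6.48). COL6A1 fell by 0.70 ± 0.22 (adjusted p = 0.026), to 1.09, 1.37, 1.24, and 1.93, and COL6A2 and COL7A1 by 0.95 ± 0.25 and 0.85 ± 0.24 (adjusted p = 0.016 and 0.020). The COL6A1 call was lost without any 1 of the 4 CC arrays (-0.73 to -0.67) and with the replicate number as a block. Its brighter probe fell by 0.54 ± 0.32 and was not called (adjusted p = 0.19, limma over all probes). The other fell by 0.87 ± 0.19 (adjusted p = 0.0092). COL1A1, COL1A2, COL3A1, and COL5A1 were not called, and their values after IVM were uneven. COL1A2 was at -5.11, 0.62, -3.99, and -5.15, and COL3A1 at -3.90, -1.22, -5.27, and -4.58. Replicate 2 stood highest in both, and in 12 of the 22 collagen genes above background on at least 3 of these arrays, beside 4008 of 13281 of all such genes. On the same array the summed fibroblast markers were 3.86 (2.76 to 3.15 on the others). LUM, PDGFRA, and TCF21 were highest there, and MGP, DCN, and DPT on other arrays. The summed granulosa and cumulus markers were 9.44 there (9.29 to 9.59 on the others). Of these, FSHR (-0.12, against 1.10 to 2.07 on the others) and AMH were lowest on that array, and CYP19A1 and INHBA were not. The part of such cells in the collagen levels was not tested. The summed oocyte markers were -0.83 to 1.59 in CC and -2.64 to -0.84 after IVM, and 4 of these 6 markers fell.

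**Figure D5:**
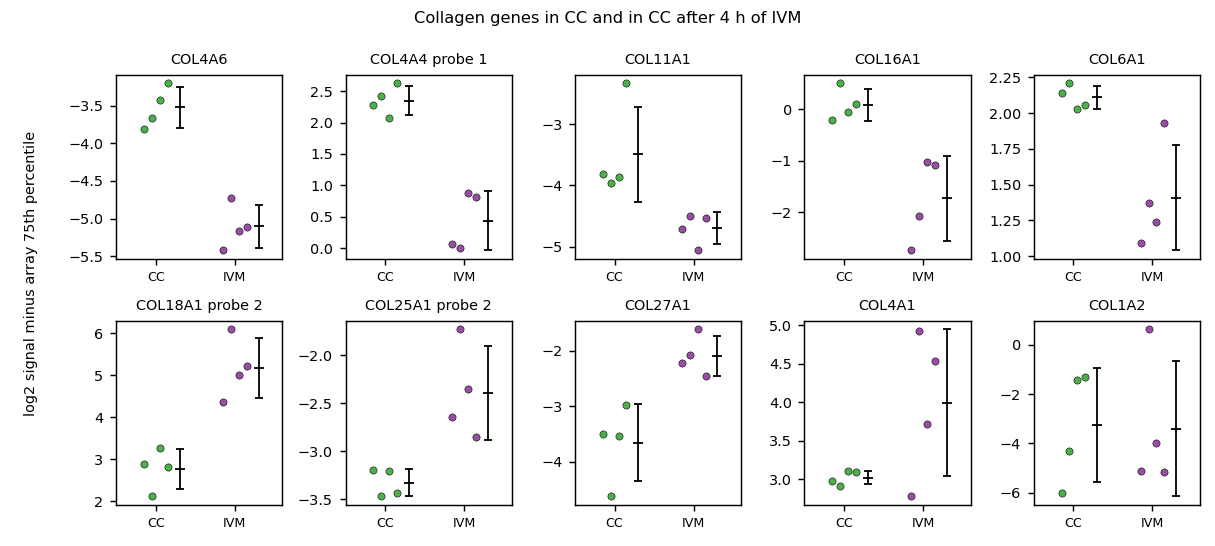
Levels of 10 collagen genes or single probes in CC and in CC after 4 h of IVM (points are arrays, with the mean and SD of 4 at the right of each group), in log2 signal minus the array 75th percentile, with a different vertical axis in each panel. COL4A6, COL4A4, COL11A1, COL16A1, and COL6A1 were lower after IVM and COL18A1, COL25A1, and COL27A1 higher without overlap, whereas COL4A1 and COL1A2 overlapped.

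The collagen partners are read beside the 30.3% of all genes that were higher after IVM, the 15.5% that were lower, and the median of 0.37. Of the 20 synthesis genes, 1 rose (PLOD2, a lysyl hydroxylase of collagen, named after its values were seen, at 2.96 to 3.58 against 2.42 to 2.73) and 6 fell, with a median of -0.04. Of the 13 cleavage and cross-linking genes, 3 rose and 2 fell, of the 10 fibril-binding genes 4 rose and 1 fell, and of the 8 receptors 2 rose and 1 fell, with medians of 0.29, 0.43, and 0.53. Of these rises, 1 of the 3 and 2 of the 4 were in genes not well above background in either group.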

How the data were processed

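RNA of 20 samples was hybridized to 1-color Agilent arrays, and the authors extracted spot intensity with Agilent Feature Extraction 10.7.3.1 (per the file headers). The deposited processed intensity, already background-corrected, was used. The deposited table of log2 values equaled log2 median signal minus the array median (largest difference 5e-09) and served as an alternative. Outlier spots were left out (at most 23 per array, 1 of them in a collagen gene), log2 intensity was scaled to the 75th percentile of each array, and the median was taken over the spots of a gene. A gene was above background where at least 1 of its probes was called so by the scanner software.

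Groups were compared with limma 3.58.1 in R 4.3.3 (lmFit and eBayes) with BH correction over 22550 genes and a threshold of 0.05, for the 16 arrays of the 4 cell types and, separately, the 8 CC arrays before and after IVM. A sentence that prints p gives this corrected value, and ± after a difference is its SE. Bounds used, per array, the higher of the probe itself and the lowest signal above background. The p-values measure the spread between arrays, whose number limits the precision.

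The members and gene lists were chosen with earlier results of these data known. Genes named by rule had the widest ranges of group means, changed most in IVM, were highest outside TH, or are textbook collagens of the follicle. Whether TH and GC arrays of the same replicate number came from paired samples was not settled. Their deviations from the group means had correlations of 0.13 to 0.37, and the same number gave the best match for 3 of the 4. Such arrays also shared a slide, so these correlations cannot separate pairing from a slide effect. The main fit took no account of pairing. The fit was tested on simulated data for TH against GC with 200 of 22550 genes changed, and recovered 27% at a log2 change of 1 and 75% at 2. For IVM against CC, 0% and 81.5% were recovered. In the data, 11.8% of genes were called higher and 14.5% lower in TH than in GC, and 30.3% and 15.5% after IVM. The simulation changed far fewer genes, so its recoveries do not give the power of these comparisons. Alternatives were quantile normalization, normexp, the deposited table, the brightest probe, a filter on dim genes, blocks for slide and replicate number, single slides, and leaving out arrays. A 75th percentile of detected probes alone and a common floor were added after seeing the data. Of 9779 unnamed probes, 734 were named through RefSeq. Coordinates are of UMD 3.1 and come from the array annotation.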

Additional observations from a re-analysis of the deposited data

Results flagged for a closer look

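In 4 of 75 groups of 4 arrays, 1 array stood far from the other 3 by Dixon's criterion, which sets the gap against the range of the group. Chance gives about 1 in 20 such groups. COL4A1 was at 1.85 in GC replicate 1 (2.87 to 3.03 in the others) and at -1.34 in oocyte replicate 1 (-0.90 to -0.88 in the others). COL5A1 was at -3.14 in CC replicate 2 (-4.57 to -4.39 in the others), and COL11A1 was at -2.33 in CC replicate 4 (-3.96 to -3.81 in the others).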

How the results depend on the processing

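Over 33 other settings, the 113 called differences of the named collagen genes kept direction and call in 3002 cases, lost the call in 152, and reversed in 9. The reversed values were COL4A6 TH minus CC (-0.51) and COL9A3 oocytes minus GC (0.03) by the brightest probe, and, under normexp, COL11A1 after IVM (0.06), COL15A1 oocytes minus CC (-0.06), COL17A1 oocytes minus TH (-0.37), GC (-0.61), and CC (-0.17), and COL25A1 oocytes minus TH (-0.50). COL17A1 oocytes minus GC was also reversed with the common floor (-0.21). Counts of genes higher after IVM were 2 by quantile normalization, 30 by normexp, 24 by the deposited table, and 4 by the brightest probe. They were 3 with the common floor, 5 with the filter on dim genes, and 8 in a fit of all 20 arrays. With slide as a block, 24 were higher, but no slide held both groups, so slide was not adjusted for. That fit used only a correlation within slides (-0.26). Medians of collagen genes and all genes were 0.64 and 0.57 by normexp, and 0.40 and 0.25 by the deposited table. Counts here lack shares of all genes, so they do not set collagen genes apart. With the replicate number as a block, 8 were higher and 5 lower after IVM, 26 were higher in TH than in GC, and no other count moved by over 1.5 times. By normexp, 3 were lower in GC than in CC, 1 higher in oocytes than in TH, 1 than in GC, and 2 than in CC, and 38 lower than in CC. Quantile normalization gave 5 higher in oocytes than in GC. The deposited table gave 2 lower in TH than in GC and 36 lower in oocytes than in CC. The common floor gave 18 lower in oocytes than in GC and 2 higher than in CC. On slide 1 alone, 1 was lower in TH than in CC, 2 were higher and 0 lower in GC than in CC, 1 higher in oocytes than in TH, and 18 lower than in GC. On slide 2 alone, 1 was lower in TH than in CC, 0 lower in GC than in CC, and 28 lower in oocytes than in CC. Leaving out 1 array gave 24 to 27 higher and 1 to 2 lower in TH than in GC (2 without GC replicate 4), 26 higher and 2 to 3 lower than in CC, 4 to 6 higher and 4 to 6 lower in GC than in CC, 2 to 4 higher and 30 to 37 lower in oocytes than in TH, 3 to 4 and 24 to 35 than in GC, and 4 and 17 to 30 than in CC (30 without oocyte replicate 2). It gave 33 to 42 that differed among cell types, and 7 to 17 higher (7 without CC replicate 1 or 3, 8 without IVM replicate 4) and 5 to 9 lower after IVM. The cause was not tested. Values near background limit the oocyte and IVM comparisons.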
